A study of Mus musculus with 19 samples.

Results

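The genes described here carry ions and water across the epithelium that makes prostatic fluid, and they were followed across 2 lobes of the mouse prostate and 2 diets. The members were chosen by gene symbol: the chloride channel Cftr, the CLCA and CLCN families, the anion exchangers and bicarbonate transporters of the SLC26 and SLC4 families, the cation-chloride cotransporters (SLC12), the subunits of the sodium pump (Na,K-ATPase), the epithelial sodium channel (ENaC), the sodium-proton exchangers with their scaffold proteins (SLC9), the sodium-coupled cotransporters (SLC5) and the aquaporins. Of 18193 genes that probe sets with a single symbol name on the array, 84 are members. Of these, 44 passed a filter that asked for a level above the array median on at least 4 arrays, and 11715 genes of the array passed it in all. A gene high in 1 lobe alone can pass this filter, so counts over these 44 genes leave out the 40 members that did not pass.

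RNA came from C57BL/6J mice that were 8 weeks old when the diets began and had free access to a control diet or a high fat diet (HFD) for 12 weeks. The labels give 5 mice per diet, no other genotype or treatment, and no composition of the diets. The ventral prostate (VP) gave 5 control and 5 HFD arrays, and the dorsolateral prostate (DLP) gave 5 control and 4 HFD arrays, 19 in all. The anterior lobe, which was also removed, was not analysed here. The labels do not say which mouse an array came from, so the lobes may come from the same mice, and a p-value here reflects only how these arrays varied, which may be partly technical. Levels are log2 values on a scale where the median of every array is 1.85. A probe set's level was compared only with its own level in other samples, because probe sets differ in brightness.

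Prostatic luminal cells secrete fluid by taking chloride up at the basal side and releasing chloride and bicarbonate into the lumen, with sodium and water following. The sodium pump keeps sodium low inside the cell, the sodium-potassium-chloride cotransporter Slc12a2 uses that gradient to load chloride, and Cftr and exchangers of the SLC26 family let anions out. ENaC and those sodium-proton exchangers that face the lumen take sodium back from it, and aquaporins pass water.

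The whole tissue was measured, so a smaller share of a cell type and less RNA per cell cannot be told apart. Of 11 luminal markers listed, 9 were on the array and all passed the filter. Their summed linear level was 4866 to 8059 on control VP, 4997 to 9110 on HFD VP, 9761 to 11939 on control DLP and 10139 to 11969 on HFD DLP arrays. In limma, 5 of the 9 were lower in DLP on the control diet and 2, Pbsn and Cd24a, were higher. These 2 had the highest DLP levels of the 9, so the linear sums lean on them. On the control diet Pbsn had means of 10.40 in VP and 12.58 in DLP, and Cd24a 9.73 and 10.84. Of the 6 basal markers 5 were higher in DLP on the control diet, with sums of 113 to 138 in VP and 167 to 199 in DLP. Of 8 smooth muscle markers 6 were higher, with sums of 2152 to 2749 and 2710 to 3068. On HFD, 3 basal and 6 smooth muscle markers were higher, and of the luminal markers 3 were higher and 5 lower. Of all genes tested, 28.2% were higher and 26.8% lower in DLP on the control diet, and 26.8% and 26.1% on HFD. All 5 nerve markers past the filter were higher in DLP on the control diet and 3 on HFD, with sums of 5.91 to 7.79 in VP and 13.2 to 135 in DLP on the control diet and of 5.36 to 8.31 and 15.7 to 25 on HFD. Of 5 macrophage markers 2 were lower in DLP on the control diet and 1 on HFD, with control sums of 49.3 to 179 in VP and 44.5 to 132 in DLP. The part of these cell types in the lobe differences below was not tested.

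The promoters of 4 genes are shown because Slc26a3 and Slc26a4, next-but-one neighbours on chromosome 12, had lobe differences of opposite sign, while Slc5a8 and Atp1b1 were ventral genes of other families. Each is the 250 bases before the RefSeq start in build GRCm38.p6, read 5′ to 3′ on the gene's strand, with motif matches in capitals. Slc26a3 lies at chr12:31437969-31438218 on the plus strand, Slc26a4 at chr12:31559985-31560234 on the minus strand, Slc5a8 at chr10:88885742-88885991 on the plus strand and Atp1b1 at chr1:164458356-164458605 on the minus strand.
Slc26a3: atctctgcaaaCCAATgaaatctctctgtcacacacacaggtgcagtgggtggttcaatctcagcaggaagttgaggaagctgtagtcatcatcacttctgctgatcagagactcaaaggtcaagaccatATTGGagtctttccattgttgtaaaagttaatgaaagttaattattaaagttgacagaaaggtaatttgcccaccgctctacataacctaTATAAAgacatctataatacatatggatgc
Slc26a4: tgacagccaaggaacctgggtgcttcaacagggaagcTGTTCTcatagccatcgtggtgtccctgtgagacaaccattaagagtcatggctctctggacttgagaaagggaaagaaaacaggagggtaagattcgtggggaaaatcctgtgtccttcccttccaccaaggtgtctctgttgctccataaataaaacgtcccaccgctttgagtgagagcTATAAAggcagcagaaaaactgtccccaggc
Slc5a8: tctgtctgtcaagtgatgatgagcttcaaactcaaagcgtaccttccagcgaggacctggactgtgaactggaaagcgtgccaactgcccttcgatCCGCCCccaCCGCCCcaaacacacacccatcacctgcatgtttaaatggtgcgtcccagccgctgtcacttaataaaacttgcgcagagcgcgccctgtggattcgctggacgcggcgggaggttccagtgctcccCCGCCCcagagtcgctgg
Atp1b1: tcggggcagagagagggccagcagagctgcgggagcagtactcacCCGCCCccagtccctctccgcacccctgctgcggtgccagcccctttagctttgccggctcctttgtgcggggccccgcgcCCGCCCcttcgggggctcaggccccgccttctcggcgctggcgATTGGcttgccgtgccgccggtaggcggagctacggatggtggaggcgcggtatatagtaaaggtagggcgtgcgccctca

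Motifs were searched on both strands by their letters. The TATA box was searched as TATAAA, and the box bound by Sp family factors, called the GC box, as GGGCGG. The CCAAT box was searched by its own letters. For the androgen receptor only a partial site, TGTTCT, was searched and not the full site, and for forkhead factors the core motif TGTTTAC. Slc26a3 and Slc26a4 each held 1 TATA box, 30 and 31 bases before the start. The Slc26a3 window also held 2 CCAAT boxes, and the Slc26a4 window held 1 partial androgen receptor site. The Slc5a8 window held 3 GC boxes, and the Atp1b1 window held 2 GC boxes and 1 CCAAT box. Of 32851 mouse promoters of the same length, 12.4% held the TATA box, 32.7% the GC box and 33.8% the CCAAT box. The partial androgen receptor site was held by 16.1% and the forkhead motif by 3.17%. The Slc26a3 window had 1 CpG and a GC content of 38.8%, that of Slc26a4 4 CpGs and 49.6%, that of Slc5a8 17 CpGs and 58.8%, and that of Atp1b1 24 CpGs and 70.4%, against medians of 6 CpGs and 52.4% over all promoters. A match is a description of the letters and was not tied to binding of any factor here.

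The largest lobe differences were those of the anion exchangers Slc26a3 and Slc26a4, the chloride loader Slc12a2 and the monocarboxylate carrier Slc5a8. On the control diet, 26 of the 44 genes tested passed an adjusted p of 0.05 between DLP and VP in limma, which is 59.1%, where 55.0% of all genes tested passed. Higher in DLP were 14 members (31.8%, against 28.2% of all genes) and lower were 12 (27.3%, against 26.8%). On HFD 23 passed (52.3%, against 52.9%), of which 10 were higher (22.7%, against 26.8%) and 13 lower (29.5%, against 26.1%). The shares that passed were thus near the background. Differences that passed and reached 1 on the log2 scale were found for 10 members on the control diet (22.7%, against 9.92%) and for 11 of 44 on HFD (against 10.3%), and the median size was 0.39 and 0.38 for members against 0.30 and 0.30 for all genes. In all, 21 members passed on both diets with the same sign, 9 higher in DLP and 12 lower, 5 passed on the control diet and not on HFD, 2 on HFD and not on the control diet, and 16 on neither. None had opposite signs. The arrays of the lobes did not overlap for 19 members on the control diet (43.2%, against 39.3% of all genes) and for 20 on HFD (45.5%, against 44.4%).

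**Figure D1:**
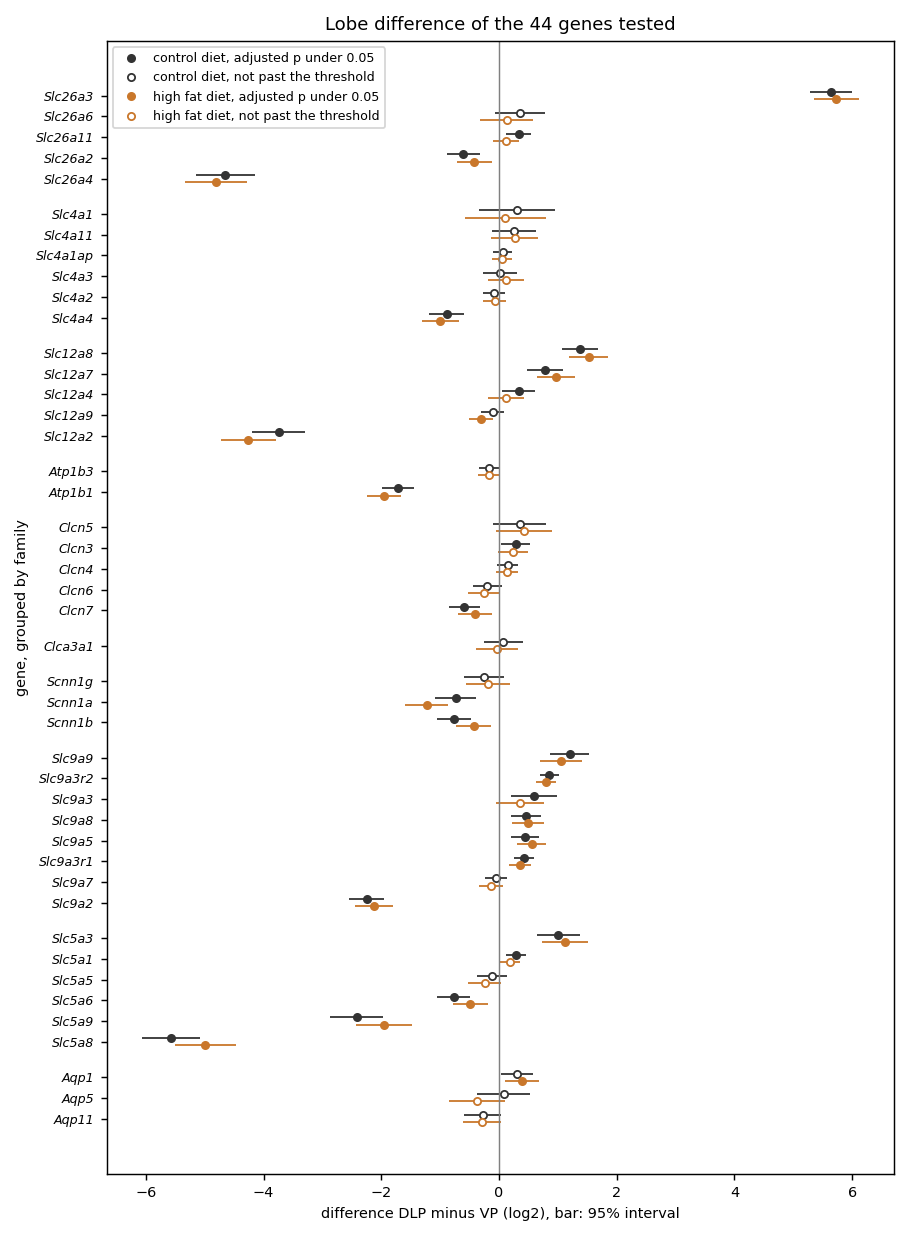
Lobe difference (DLP minus VP, log2) of the 44 genes tested, grouped by family, with bars for the 95% interval and filled points for an adjusted p under 0.05 in limma, on the control diet and on HFD. Slc26a3 lies far to the right at 5.65 and 5.73, and Slc5a8, Slc26a4 and Slc12a2 far to the left, between -3.74 and -5.57.

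Anion exchangers of the SLC26 family held the most opposed pair. Slc26a3, an apical exchanger of chloride for bicarbonate known from the intestine, had levels of 1.08, 1.02, 0.48, 1.00 and 1.10 on the control VP arrays and 1.13, 0.12, 1.20, 0.79 and 1.32 on HFD VP. On DLP arrays it was 6.63, 6.40, 6.65, 6.55 and 6.68 on the control diet and 6.50, 6.58, 6.79 and 6.70 on HFD. Every VP array was below the array median and every DLP array far above it. The difference was 5.65 ± 0.17 (SE) on the control diet and 5.73 ± 0.18 on HFD, with adjusted p of 7.6e-16 and 1.7e-15 in limma. Because its VP level is under the array median, the size rests on a low value. Over the alternative settings tried, the smallest Slc26a3 difference was 3.525 on the control diet and 3.579 on HFD. The direction and call were kept in all 32. The smallest in size for Slc26a4 were -4.081 and -4.174, so which gene differs more between the lobes depends on the setting. Of 3 further Slc26a3 probe sets, 2 were also higher in DLP, by 4.19 and 3.79 on the control diet, and the other was below the array median on every array.

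Slc26a4 (pendrin), an exchanger of chloride, iodide and bicarbonate, ran the other way. Its VP levels were 8.32, 8.37, 8.55, 8.65 and 8.47 on the control diet and 8.53, 8.65, 8.29, 8.10 and 8.71 on HFD. Its DLP levels were 3.49, 4.53, 3.83, 4.06 and 3.20 on the control diet and 3.54, 4.60, 3.14 and 3.29 on HFD. The lobes were far apart on all arrays, and DLP array 2 was the highest of its lobe on each diet. Slc26a4 was lower in DLP by 4.65 ± 0.24 (SE) on the control diet, a 25.1-fold difference, and by 4.81 ± 0.25 on HFD, 28.1-fold, with adjusted p of 2.9e-12 and 5.0e-12 in limma.

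In the order of protein-coding genes on chromosome 12, Cbll1 lies between Slc26a3 and Slc26a4. Cbll1 was lower in DLP, with a log2 difference of -0.74 on the control diet and -0.72 on HFD. Dld, on the other side of Slc26a3, differed by -0.50 on both diets, and Bcap29, beyond Slc26a4, by -0.84 and -1.02. Lamb1 was higher in DLP by 0.60 and 0.67, a call lost with the mean of its probe sets (0.18 and 0.25, adjusted p 0.22 and 0.12 in limma), and Dus4l did not pass, at -0.08 and -0.16. The large differences of opposite sign were therefore seen at Slc26a3 and Slc26a4 and not at the 5 genes around them.

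**Figure D2:**
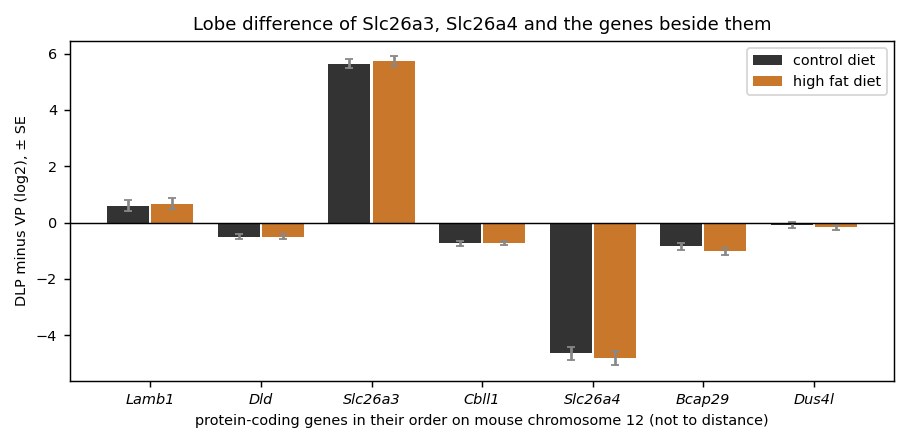
Lobe difference (DLP minus VP, log2, bars ± SE) of 7 protein-coding genes in their chromosome 12 order, on the control diet and on HFD; the spacing is not to distance. Slc26a3 stands at 5.65 and 5.73 and Slc26a4 at -4.65 and -4.81, while the 5 genes around them lie between -1.02 and 0.67.

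Of the other SLC26 members tested, Slc26a2, a sulfate transporter, was lower in DLP by 0.61 ± 0.14 (SE) on the control diet and by 0.42 ± 0.14 on HFD (adjusted p 0.00085 and 0.020 in limma), and the HFD call was lost without HFD VP array 1 (adjusted p 0.052) or array 2 (0.061). Slc26a11 was higher in DLP by 0.34 on the control diet. On HFD it differed by 0.12 and did not pass. Slc26a6 did not pass on either diet (0.35 and 0.13). In the SLC4 family, Slc4a4, the sodium-bicarbonate cotransporter that brings bicarbonate into secretory cells, was the only one of 6 genes tested that passed, on both diets. The 6 include Slc4a1ap, an adaptor protein caught by its symbol that is no transporter. Levels of Slc4a4 were 3.04, 3.09, 2.91, 3.03 and 2.60 on control VP arrays and 1.82, 2.23, 1.91, 2.01 and 2.28 on control DLP arrays. On HFD they were 2.93, 2.32, 2.70, 3.02 and 3.17 in VP and 2.01, 1.71, 1.77 and 1.83 in DLP, and the lobes did not overlap on either diet. Slc4a4 was lower in DLP by 0.89 ± 0.14 and 1.00 ± 0.15 (adjusted p 2.7e-05 and 1.4e-05 in limma). Its HFD DLP mean, 1.83, was below the array median, so the HFD size rests on a low value. Over the alternative settings, its smallest difference was -0.395 on the control diet and -0.424 on HFD, with the call kept in all 31.

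The chloride loader Slc12a2 and the sodium pump subunit Atp1b1 were higher in VP. Slc12a2 (NKCC1) had levels of 12.39, 12.39, 12.18, 12.59 and 12.48 on control VP arrays and 12.39, 12.59, 12.07, 12.31 and 12.48 on HFD VP. Its DLP levels were 8.66, 9.12, 8.78, 8.80 and 7.93 on the control diet and 7.99, 8.997, 7.74 and 7.71 on HFD. The lobes were apart on every array, with more spread in DLP than in VP. Slc12a2 was lower in DLP by 3.74 ± 0.21 on the control diet (13.4-fold) and by 4.26 ± 0.23 on HFD (19.1-fold), with adjusted p of 1.4e-11 and 5.8e-12 in limma, and both further probe sets were lower in DLP (-3.57 and -4.04 on the control diet). The potassium-chloride cotransporter Slc12a7 (KCC4) went the other way, higher in DLP by 0.78 ± 0.15 and 0.97 ± 0.15 (adjusted p 0.00014 and 2.7e-05 in limma), as did Slc12a8 (1.37 and 1.52). Slc12a8 was above the array median on all DLP arrays and no VP array, so its size rests on a low VP level, and it was 0.55 and 0.61 with an offset of 8. Slc12a4 (KCC1) passed on the control diet alone (0.33, adjusted p 0.046 in limma), a call lost in 20 of 31 alternatives (adjusted p up to 0.14, without control DLP array 4), and Slc12a9 on HFD alone (-0.31, adjusted p 0.015). The other Slc12a9 probe set, above the array median on 15 arrays, differed by -0.52 on the control diet and -0.155 on HFD.

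Atp1b1, the beta subunit that carries the sodium pump to the membrane, had levels of 10.34, 10.69, 10.12, 10.90 and 10.55 on control VP arrays and 11.06, 11.11, 10.47, 11.06 and 10.92 on HFD VP. In DLP they were 8.85, 9.01, 8.79, 8.75 and 8.62 on the control diet and 8.93, 9.05, 8.94 and 8.93 on HFD. All VP arrays were above all DLP arrays. Atp1b1 was lower in DLP by 1.72 ± 0.13 and 1.96 ± 0.14 (adjusted p 1.1e-09 and 3.7e-10 in limma), with 3 of 4 further probe sets lower too, by -1.17 to -1.73 on the control diet, and the other near the array median and differing by 0.05 and -0.03. The other subunit tested, Atp1b3, did not pass (-0.17 on both diets).

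**Figure D3:**
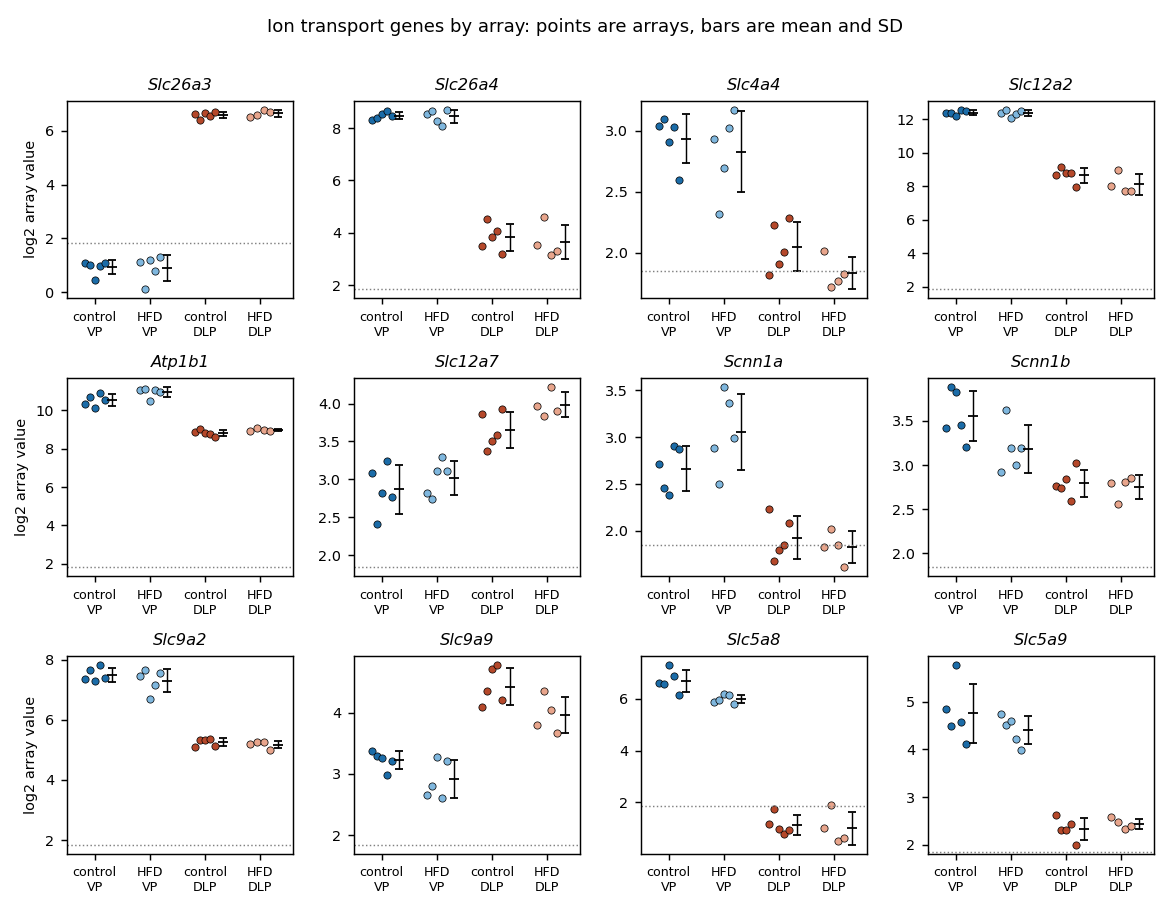
Levels of 12 genes (log2, vertical axis) by lobe and diet; each point is 1 array, bars give the mean ± SD, and the dotted line is the array median of 1.85. Slc26a3 is near the bottom in VP and near 6.6 in DLP, while Slc26a4, Slc12a2, Atp1b1 and Slc5a8 are high in VP.

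Members of the ENaC and SLC9 families that passed on both diets differed in direction. Scnn1a, the alpha subunit that ENaC needs to conduct, had levels of 2.71, 2.45, 2.38, 2.91 and 2.87 on control VP arrays and 2.88, 2.50, 3.53, 3.37 and 2.99 on HFD VP. In DLP they were 2.24, 1.68, 1.80, 1.85 and 2.08 on the control diet and 1.82, 2.03, 1.84 and 1.62 on HFD. The lobes did not overlap on either diet. Scnn1a was lower in DLP by 0.74 ± 0.17 and 1.23 ± 0.18 and Scnn1b, the beta subunit, by 0.77 ± 0.14 and 0.43 ± 0.15 (adjusted p 0.00090, 7.9e-06, 8.9e-05 and 0.017 in limma). The HFD DLP mean of Scnn1a, 1.83, was below the array median, so its HFD size rests on a low value. Over the alternative settings, the smallest Scnn1a difference was -0.305 on the control diet and -0.547 on HFD, with the call kept in all 31. The Scnn1b call on HFD was lost without HFD VP array 2 (adjusted p 0.054 in limma) or HFD DLP array 2 (0.061). Scnn1g, the gamma subunit, did not pass (-0.26 and -0.19).

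Slc9a2 (NHE2), a sodium-proton exchanger of the apical membrane, was also ventral, at 7.34, 7.67, 7.28, 7.82 and 7.39 on control VP arrays and 5.10, 5.34, 5.34, 5.35 and 5.12 on control DLP arrays. On HFD its levels were 7.46, 7.64, 6.68, 7.17 and 7.54 in VP and 5.18, 5.27, 5.26 and 4.99 in DLP. The lobes did not overlap, and Slc9a2 was lower in DLP by 2.25 ± 0.14 and 2.12 ± 0.15 (adjusted p 9.1e-11 and 5.4e-10 in limma). The other SLC9 members that passed on both diets were higher in DLP. They were Slc9a9 (1.20 and 1.05), an exchanger of endosomes, Slc9a8 (0.45 and 0.50), Slc9a5 (0.44 and 0.56) and 2 scaffold proteins. The scaffolds Slc9a3r1 (0.42 and 0.36) and Slc9a3r2 (0.85 and 0.81) tether transporters at the apical membrane. The VP means of Slc9a5, 1.844 and 1.765, did not reach the array median. Its smallest difference over the alternative settings was 0.164 on the control diet and 0.208 on HFD, with the call kept in all 30. Slc9a3 passed on the control diet alone (0.59, adjusted p 0.011 in limma), with every VP array below the array median, and it was 0.38 without control DLP array 5 (adjusted p 0.026), which stood at 2.91 against 1.498 to 2.10 on the others. Slc9a7 passed on neither diet.

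Among the sodium-coupled cotransporters, Slc5a8, which carries lactate and other monocarboxylates, was much higher in VP. Its VP levels were 6.61, 6.56, 7.30, 6.87 and 6.13 on the control diet and 5.88, 5.95, 6.20, 6.13 and 5.79 on HFD. In DLP it was 1.18, 1.75, 0.99, 0.78 and 0.94 on the control diet and 1.00, 1.89, 0.50 and 0.61 on HFD. All but 1 DLP array were below the array median. The difference was -5.57 ± 0.24 and -4.99 ± 0.25 (adjusted p 1.7e-13 and 2.7e-12 in limma), a size that rests on the low DLP value and was -3.59 and -2.95 with an offset of 8, where Slc26a4 was -4.08 and -4.17. Slc5a9, a sugar transporter, was lower in DLP by 2.42 ± 0.22 and 1.96 ± 0.23, with all 3 further probe sets lower too, and Slc5a6, which carries vitamins, by 0.77 and 0.49. Slc5a3, which takes up the osmolyte myo-inositol, was higher in DLP by 1.01 ± 0.18 and 1.12 ± 0.19 (adjusted p 7.8e-05 and 5.1e-05 in limma). Slc5a1, a glucose transporter, passed on the control diet alone (0.29, and 0.18 on HFD), and Slc5a5, the iodide transporter, on neither. The other Slc5a1 probe set, above the array median on all 19 arrays, was higher in DLP by 0.68 and 0.86. The small size and the limit to 1 diet thus depend on the probe set.

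Of the channels and transporters for chloride and water, Clcn7, a chloride-proton exchanger of lysosomes, was lower in DLP by 0.59 ± 0.13 and 0.41 ± 0.14, while 2 further probe sets differed by -0.11 and -0.01 on the control diet and by -0.23 and -0.47 on HFD. The HFD call was lost without HFD DLP array 2 (adjusted p 0.063 in limma). Clcn3 differed by 0.28 on the control diet at an adjusted p of 0.049 in limma, turned to -0.05 when the mean of its probe sets was taken (adjusted p 0.49), and lost its call with the same sign in 23 of 32 alternatives. Without control VP array 4 it was 0.15 (adjusted p 0.16). Aqp1, the water channel of endothelium and many epithelia, passed on HFD (0.39 ± 0.14, adjusted p 0.024 in limma), a call lost without HFD VP array 2 (0.073), HFD DLP array 1 (0.054) or HFD DLP array 4 (0.057). Its means were 3.85 ± 0.19 and 3.98 ± 0.29 in VP and 4.16 ± 0.25 and 4.37 ± 0.06 in DLP (SD, control diet then HFD). Aqp5, a water channel of gland epithelia, had means of 3.33 ± 0.53 and 3.48 ± 0.25 in VP and 3.402 ± 0.26 and 3.11 ± 0.40 in DLP. Aqp5 and Aqp11 did not pass on either diet, and neither did Clca3a1, Clcn4, Clcn5 or Clcn6.

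The 40 members that did not pass the filter included Cftr, whose means were 0.95 ± 0.10 on control VP, 0.70 ± 0.38 on HFD VP, 0.87 ± 0.13 on control DLP and 0.51 ± 0.40 on HFD DLP arrays (SD, n = 5, 5, 5 and 4). Both Cftr probe sets were below the array median on all 19 arrays. Of the 40, 33 were above the median on no array and 7 on 1 to 3 arrays. They included 8 of 11 aquaporins, 6 of 7 CLCA genes, 3 of 5 sodium pump subunits, 5 of 10 SLC26, 4 of 10 SLC4, 3 of 8 SLC12, 7 of 13 SLC5, 2 of 7 CLCN and 1 of 9 SLC9 genes. A level below the array median is a low signal of the probe set and does not show that the gene is silent.

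DLP array 2 stood apart on each diet. Over the 50 genes outside the list with the largest ventral excess, its median deviation from the other arrays of its group was 0.41 on the control diet and 0.63 on HFD, where other DLP arrays had -0.28 to 0.04. Of the 12 members high in VP on both diets, 6 had their highest DLP level on that array on each diet, with Slc12a2, Slc26a4, Slc5a8 and Atp1b1 among them both times. Without both arrays, a choice made after seeing the data, the DLP minus VP difference was -3.86 and -4.55 for Slc12a2, -4.83 and -5.13 for Slc26a4, and -5.72 and -5.29 for Slc5a8. The part of ventral tissue in these arrays was not tested.

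Lists of 8 kinds of other genes in these pathways held 76 genes past the filter, of which 28 were higher and 19 lower in DLP on the control diet (61.8% called, against 55.0% of all genes) and 24 and 18 on HFD (55.3%, against 52.9%) in limma. These shares were near those of all genes, and the lists below are given by their members' values. Of 5 potassium channels of secretory epithelia, which recycle potassium and keep the cell negative, 4 were lower in DLP on both diets and none was higher. Kcnn4 differed by -1.64 and -1.95, Kcnq1 by -1.07 and -1.50, Kcnma1 by -0.86 and -0.95 and Kcnk5 by -0.65 and -1.24. Kcnq1 and Kcnk5 were below the array median in DLP on average, so their sizes rest on low values. With an offset of 8 in the logarithm Kcnq1 differed by -0.35 and -0.50. Of 16 proton pump genes 10 were higher and 4 lower in DLP on the control diet, and 7 and 4 on HFD. Atp12a, a pump that exchanges protons for potassium, was higher in DLP by 5.13 and 4.85, and Atp6v1c2, a subunit of the vacuolar proton pump, by 2.79 and 2.84.

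Regulators and the remaining lists are given next, beside the same lobe backgrounds of 55.0% and 52.9% of all genes. Of 13 kinases and ligases, 6 were higher and 2 lower in DLP on the control diet and 7 and 2 on HFD, with Sgk1, a kinase that raises ENaC at the membrane, higher by 1.29 and 1.31, and Wnk2 lower (-1.91 and -2.20). Of 7 channel-activating proteases and their inhibitors 2 were higher and 3 lower on each diet, with Tmprss2 higher by 1.13 and 1.00 and Tmprss4 lower (-2.14 and -1.94). The DLP level of Tmprss4 was below the array median, and with an offset of 8 it differed by -0.82 and -0.65. Of 5 FXYD regulators of the sodium pump 2 were higher and 1 lower on each diet, the lower one being Fxyd3 (-0.91 and -1.16), and the HFD call of Fxyd5 was lost without HFD VP array 1 (adjusted p 0.052 in limma), HFD VP array 5 (0.068) or HFD DLP array 3 (0.061). Of 9 genes listed by name as carbonic anhydrases, 2 were higher and 2 lower on the control diet and 2 and 1 on HFD. Car2 was higher by 1.70 and 1.06, and Car8 was lower (-2.01 and -1.28, and -0.97 and -0.60 with an offset of 8). Whether each is an active enzyme was not tested. Of 8 calcium-activated anion and volume channels 1 was higher and 2 lower on the control diet and 0 and 2 on HFD, with Ano6 lower (-1.38 and -1.32). The other lower call on HFD, Ano10, was lost in 8 of 31 alternatives, among them no filter (adjusted p 0.053 in limma) and single omissions of HFD VP arrays 1, 2 and 5 and HFD DLP arrays 1, 2 and 3 (up to 0.094). Of 13 genes of cAMP signalling 5 were higher and 1 lower on the control diet and 4 and 1 on HFD, with Pde4b, which breaks down cAMP, higher by 1.49 and 1.40.

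Diet gave no call among the members. In VP, 0 of the 44 genes passed an adjusted p of 0.05 in limma, where 1.11% of all genes tested passed (0.529% higher and 0.580% lower). The groups did not overlap for 0 members (against 2.58%), and 4 had an unadjusted p under 0.05 (9.09%, against 15.2% of all genes). In DLP, 0 passed, as did 0 of all genes, and 3 had an unadjusted p under 0.05 (6.82%, against 5.63%). The lowest adjusted p of a member was 0.13 in VP and 0.82 in DLP. These tests do not show that diet left a gene as it was, and intervals are given for the members with the lowest p.

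The lowest p in VP belonged to Atp1b1, whose levels are given above and whose groups overlapped at control array 4 (10.90) and HFD array 3 (10.47). It was 0.40 ± 0.13 higher on HFD (95% interval 0.13 to 0.67, adjusted p 0.13 in limma). Without HFD VP array 3, the lowest HFD value, the difference was 0.52 and passed (adjusted p 0.039), an omission that widens the difference by its construction. HFD VP array 3 also had the highest summed macrophage markers, 365, where the other HFD VP arrays had 53.4 to 83 and control VP arrays 49.3 to 179. Summed seminal vesicle markers were 104 on HFD VP array 2 and 1.08 to 9.81 on the other VP arrays. The part of these cells in the diet values was not tested.

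Slc5a8 was next in VP, at -0.71 ± 0.24 (95% interval -1.20 to -0.22, adjusted p 0.15 in limma). Its HFD values of 5.79 to 6.20 met the control values only at control array 5 (6.13). It passed with an offset of 8 in the logarithm, at -0.65 and an adjusted p of 0.028. Scnn1b had -0.37 ± 0.14 (adjusted p 0.19 in limma), Scnn1a 0.39 ± 0.17 (0.27) and Slc26a6 0.43 ± 0.20 (0.33). The Slc26a6 value was 0.26 without control VP array 5 (adjusted p 0.55), and its control VP mean was below the array median. The alpha and beta subunits of ENaC thus had estimates of opposite sign, neither of which passed.

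In DLP the lowest p was that of Slc9a9, at -0.46 ± 0.17 (95% interval -0.82 to -0.11, adjusted p 0.82 in limma). Its levels were 4.10, 4.35, 4.71, 4.78 and 4.201 on the control diet and 3.80, 4.35, 4.04 and 3.66 on HFD. Only HFD array 2 reached into the control range. Slc12a2 had -0.55 ± 0.23 (adjusted p 0.82 in limma), -0.845 without HFD DLP array 2 (0.32), and -0.73 without array 2 of both diets (0.68). Slc12a7 had 0.33 ± 0.15 (adjusted p 0.87 in limma) and Aqp1 0.21 ± 0.14 (0.97). Aqp1 was 0.135 without control DLP array 2 (adjusted p 1.0). Slc26a2 was the 1 member whose groups did not overlap in DLP (2.27%, against 3.15% of all genes), with control values of 2.09 to 2.32, HFD values of 2.34 to 2.45, and a difference of 0.23 ± 0.14 (adjusted p 0.96 in limma).

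**Figure D4:**
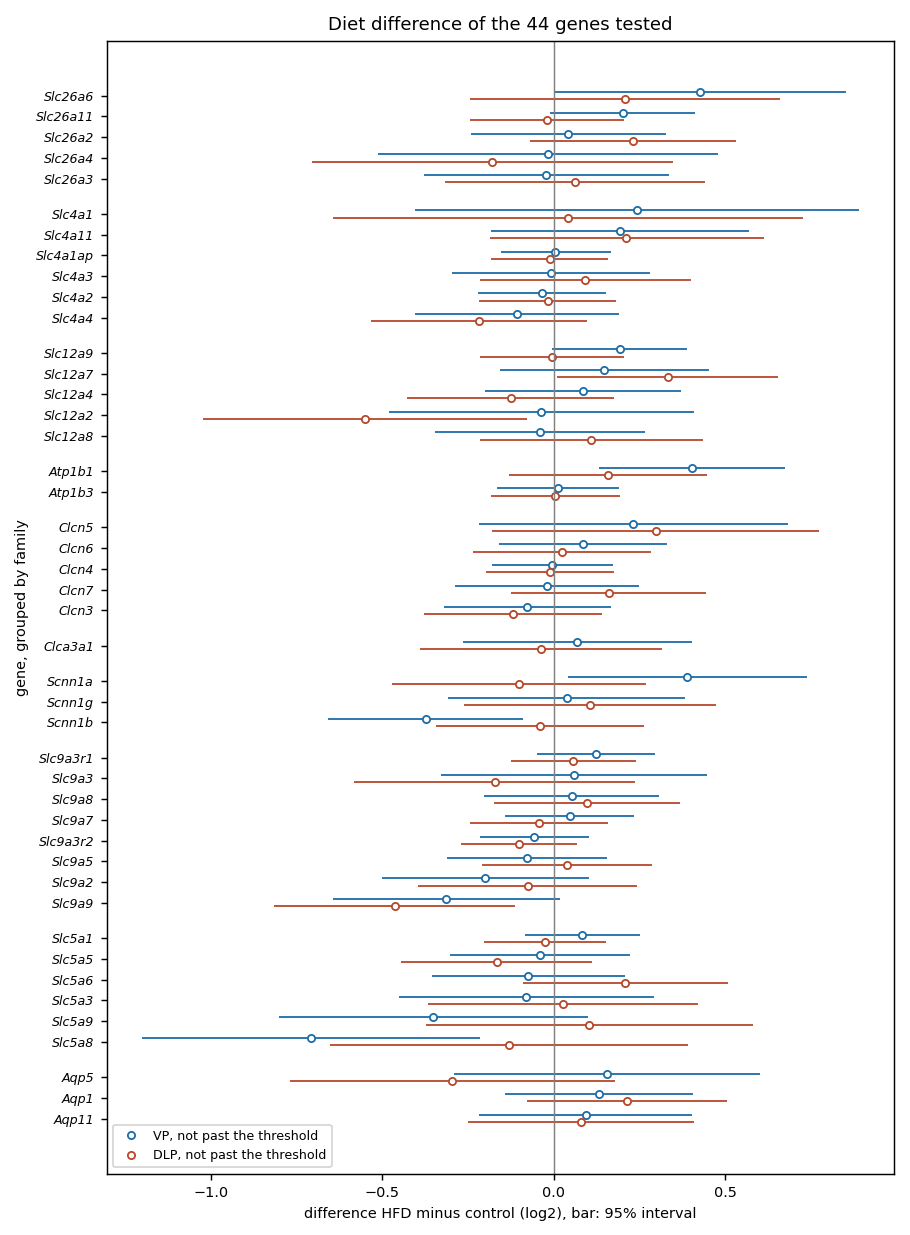
Diet difference (HFD minus control, log2) of the 44 genes tested in VP and DLP, grouped by family, with bars for the 95% interval; open points did not pass an adjusted p of 0.05 in limma. All points are open, and the widest departures from 0 are Slc5a8 in VP at -0.71 and Slc12a2 in DLP at -0.55.

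The diet difference was also compared between the lobes. None of the 44 members passed for this interaction in limma (0.00854% of all genes did), and 0 had an unadjusted p under 0.05, where 8.44% of all genes had. The lowest p was that of Scnn1a, whose diet difference was lower in DLP than in VP by 0.49 ± 0.24 (95% interval -0.997 to 0.017, adjusted p 0.60). For the leading lobe genes the diet intervals were -0.38 to 0.34 in VP and -0.32 to 0.44 in DLP for Slc26a3, and -0.51 to 0.48 and -0.71 to 0.35 for Slc26a4. Slc26a3 was below the array median on all VP arrays, so its VP interval sets no limit on a diet effect. Among the pathway lists, Car2, a cytosolic carbonic anhydrase, was the 1 gene of 76 that passed for diet in VP (0.72 ± 0.17, adjusted p 0.043 in limma), and it missed the threshold in 25 of 32 alternatives.

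The spread within groups was wider for members than for all genes tested. The median SD was 0.23 in control VP, 0.23 in HFD VP, 0.21 in control DLP and 0.13 in HFD DLP, against 0.18, 0.17, 0.13 and 0.12 for all genes. The genes whose pattern was most like that of Slc26a3 over the 19 arrays were Glb1l2, Gsdma, Glb1l3, Chn2 and Col4a6, with Pearson's r from 0.995 to 0.9967. For Slc5a8 they were Gdpd1, Fgfbp1, Pygb, Gpx8 and Suco, with r from 0.9908 to 0.992. These arrays share the lobe contrast, which sets most of each r.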

How the data were processed

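RNA of 19 samples was measured on 1-colour mouse arrays of 45101 probe sets. Values were made with MAS5, per the submitters' processing notes, and the deposited values are on a log10 scale. The base was inferred here from the hybridization controls, whose steps of 0.5, 0.62 and 0.987 stand beside nominal log10 steps of 0.523, 0.699 and 0.602, so the base, and with it every fold, carries that doubt. Ranked from low to high, the 19 arrays hold the same numbers, a forced common distribution that can hide a shift shared by most genes. An offset of 1 was assumed inside the logarithm.

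The deposited values were turned to log2. The 64 control probe sets were left out, 34958 probe sets had 1 gene symbol, 932 had several and 9211 none. For 34754 of the probe sets with 1 symbol, the RefSeq symbol was looked up by the gene ID, whether or not it differed. The probe set with the highest mean over all arrays stood for its gene. Genes above the array median on at least 4 arrays were tested with limma 3.58.1 in R 4.3.3, on a model of 4 groups with trended moderation fitted across all 11715 genes, and p-values were adjusted by Benjamini-Hochberg over all of them. The number of arrays limits the precision. The script was tested on simulated data.

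The members, lists and tests were chosen with earlier results of these data known. Named genes were the 5 members with the lowest p for diet in each lobe, up to 4 members per family with the largest lobe difference past the threshold on both diets, Cftr, ENaC, sodium pump and aquaporin genes by level, the 5 genes most correlated with Slc26a3 and with Slc5a8, and the 2 largest changes of each pathway list. Other names in the text were added after their values were seen, the chromosome 12 neighbours among them. An exact permutation test was planned for diet differences of members that passed, and no member did. Samples were grouped by the labels, and the numbers within groups were not shown to pair samples. Promoters came from a set built on RefSeq starts that held 67 of the 84 members. Slc12a2, Slc9a2, Slc5a9 and Scnn1a had no entry in that set, so their promoters could not be shown. Alternatives covered the filter, the offset, the choice of probe set, the scaling, the weights, the block and the omission of arrays.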

Additional observations from a re-analysis of the deposited data

Results flagged for a closer look

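In groups of 4 or 5 arrays, a gap test on the highest and lowest array of each of 100 gene and group pairs marked 2, where chance marks about 1 in 20. Atp1b1 was 9.052 on HFD DLP array 2, and 8.927 to 8.943 on the other 3 HFD DLP arrays. Slc26a3 was 0.475 on control VP array 3, below the array median, and 0.995 to 1.1 on the other control VP arrays. The cause was not tested for either.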

How the results depend on the processing

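Of 49 lobe differences called among the members, 43 kept direction and call in every alternative run for them, at most 32, and 6 did not: Aqp1, Clcn7, Scnn1b and Slc26a2 on HFD, and Clcn3 and Slc12a4 on the control diet. Clcn3 turned to -0.053 with the mean of probe sets (adjusted p 0.49 in limma). With a filter at the 75th percentile, which leaves 23 members, 9 were higher and 7 lower in DLP on the control diet and 7 lower on HFD. No share of all genes was taken under the alternatives. Counts under them show only how the members' calls moved. In the main fit 55.0% of all genes passed on the control diet and 52.9% on HFD, near the members' shares. The count of members higher on HFD in VP was 1 (Atp1b1) without control VP array 4 and HFD VP array 3, a pair chosen with earlier results known whose removal takes away the overlap of the Atp1b1 groups and so supports no call, and the count lower was 1 with an offset of 8. Leaving out single arrays gave 12 to 15 higher and 12 to 13 lower in DLP on the control diet, 9 to 11 and 11 to 14 on HFD, 0 to 1 higher on HFD in VP, and 0 in the other diet counts. The test of groups alone could not be run for the interaction, which needs all arrays.

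The replicate numbers did not establish a pairing: of 27 pairs of equal number 8 correlated above 0.1, and the consensus correlation was 0.0445. With number and diet as a replicate block, 15 members were higher and 12 lower in DLP on the control diet, and 10 and 13 on HFD. With the number as a fixed block they were 13 and 12, and 10 and 13. All diet and interaction counts were 0 under both blocks. The block counts also have no share of all genes beside them. Slc12a4 and Clcn3 on the control diet missed the threshold under the fixed block, at adjusted p of 0.057 and 0.052 in limma.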
